A study of Homo sapiens with 50 samples.

Results

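Gene expression in HepaRG cells kept with 1 mM mesotrione was set against that of the same cells kept with the lower doses of the compound. The 1 mM group held 5 libraries, and the lower doses, 10 µM and 0.1 µM, held 5 libraries each and were pooled to 10. These 15 libraries were chosen by their titles out of 50 in the series, and no control library entered the comparison. All groups shared the cell line and the schedule: terminally differentiated HepaRG cells were plated in general purpose medium until day 8 and then held until day 14 in a test medium with serum and dimethyl sulfoxide. Mesotrione was added to that medium at 1 mM, 10 µM or 0.1 µM, and 5 libraries labelled Control are given below only as levels. The doses were meant to span a high concentration, an intermediate one and one near environmental exposure. HepaRG is 1 human hepatic tumour line. The labels do not tell separate cultures from repeat libraries within a group. The p-values therefore speak of the spread among these libraries alone, which may be technical.

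Mesotrione is a triketone herbicide. It inhibits 4-hydroxyphenylpyruvate dioxygenase, an enzyme of tyrosine breakdown that plants need for making plastoquinone and tocopherol and that the human liver makes from the gene HPD. Differentiated HepaRG cultures hold hepatocyte-like cells, which secrete plasma proteins and metabolise drugs, beside biliary-like epithelial cells. Liver cells answer foreign compounds through several transcription factors: the aryl hydrocarbon receptor (AHR) drives CYP1 genes, NRF2 drives antioxidant genes, the receptors CAR and PXR drive CYP2 and CYP3 genes, and ATF4 drives amino acid synthesis and transport when amino acids run short or proteins misfold.

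Values are FPKM, fragments per kilobase of transcript scaled to library size, summed over the named transcripts of a gene. The estimated depth was 8810000 to 19300000 fragments at 1 mM and 7160000 to 34300000 at the lower doses. Depth, summed FPKM, the number of genes at 1 FPKM or more and the shares of summed FPKM in ribosomal RNA genes, mitochondrial genes and unnamed transcripts did not differ beyond the spread (6 measures, exact permutation test over 3003 splits, two-sided, p = 0.15 to 0.796, adjusted p = 0.453 or more). Log2 values of libraries of 1 group correlated at 0.924 to 0.955. The hepatic label held: ALB, which encodes albumin, read 4651, 7655, 10302, 6806 and 7935 FPKM at 1 mM, against 7628 to 11371 (median 9568) at the lower doses.

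In all, 13581 genes reached 1 FPKM in 5 or more of the 15 libraries, and 285 of them differed between 1 mM and the pooled lower doses (limma on log2(FPKM + 1), Benjamini-Hochberg adjusted p under 0.05). That is 2.1% of the genes tested; 59 were higher at 1 mM (0.434%) and 226 were lower (1.66%). Rises were smaller than falls, with a median log2 fold change of 0.40 among the higher genes and -0.61 among the lower, while the median of all genes was 0.01. A change of more than 2-fold on the log2(FPKM + 1) scale was reached by 2 of the higher genes and 46 of the lower. No overlap between the 5 and the 10 libraries was found for 59 genes that lay higher at 1 mM (0.434% of those tested) and 163 that lay lower (1.2%), of which 37 and 138 were also called. Of the 285 called genes, 270 were protein-coding. The count was 162 without replicate 2 of the 1 mM group. A fit over all 50 libraries, controls and other compounds included, called 44 genes, and 1 that left out the series' library rich in ribosomal RNA called 389. Means below are ± SD over 5 libraries at 1 mM and 10 at the lower doses, and coordinates are GRCh38. The largest rises and falls described below (BCYRN1, ASNS, SRXN1, CYP1B1, SLC7A11, PSAT1, SLC1A5, DEPTOR, SLC16A1, MSC, SH3PXD2B, COL3A1, CRP, AHSG, CYP4F22, SFRP2, VSIG1, ECM1, EPYC, CP, CYP2C8, CA9 and KRT14) were picked among called genes without overlap, so its absence in them was set by that choice. Fold changes on this scale understate those of genes near 0.

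**Figure D1:**
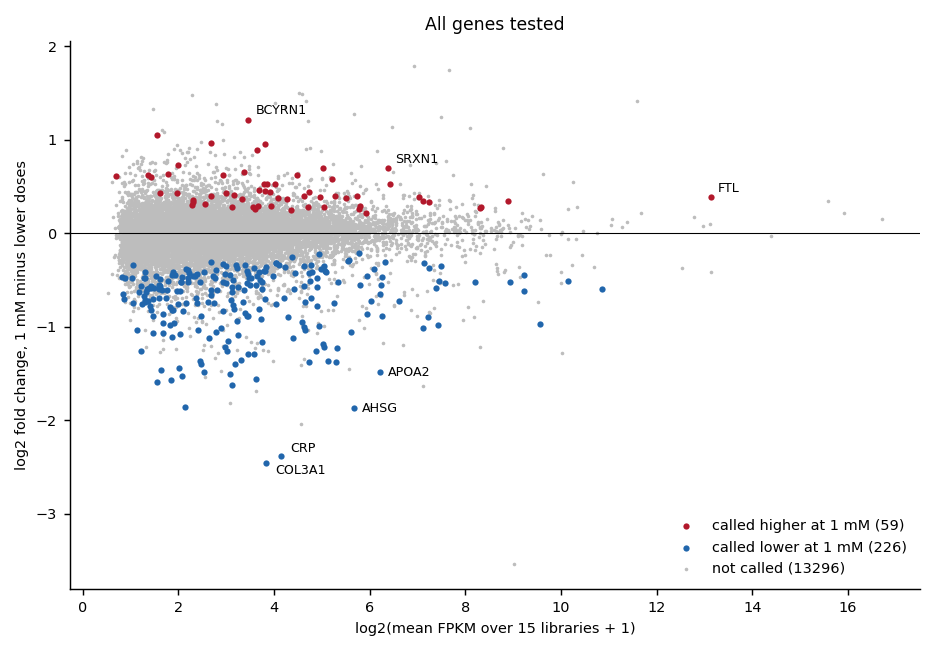
Each point is 1 of 13581 genes, placed by log2 of its mean FPKM over the 15 libraries plus 1 (horizontal axis) and by its log2 fold change, 1 mM minus lower doses (vertical axis); red points are the 59 genes called higher at 1 mM, blue points the 226 called lower and grey points the rest. The blue points reach further from 0 than the red ones, down to COL3A1 at -2.46, while BCYRN1 tops the red ones at 1.21.

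The genes that rose at 1 mM included a set for making and importing amino acids. Beside each list count below stand the shares of all genes tested, 0.434% called higher and 1.66% called lower. Of 27 listed genes of ATF4 and the integrated stress response 22 were tested; 5 rose, none fell, and the median log2 fold change of the 22 was 0.20, against 0.01 for all genes. They were ASNS, PSAT1, TRIB3, PHGDH and SLC3A2. ASNS, the enzyme that makes asparagine (chromosome 7, 97852118 to 97872542, GRCh38, minus strand), carries a well-known ATF4 element before its start. The 250 bases before its first RefSeq start (GRCh38.p14, chr7:97872409-97872658, minus strand) are shown for that reason, with the match to the core TGATGNAA in capitals:
ASNS: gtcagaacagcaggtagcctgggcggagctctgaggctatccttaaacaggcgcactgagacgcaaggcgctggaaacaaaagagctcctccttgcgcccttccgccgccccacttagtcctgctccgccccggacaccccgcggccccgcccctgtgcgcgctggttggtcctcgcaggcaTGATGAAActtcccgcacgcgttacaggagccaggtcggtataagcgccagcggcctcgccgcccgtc
The match began 68 bases before the start and overlapped no match of the other motifs named below. RefSeq promoter windows, 250 bases before to 50 after a start, were searched on both strands. TGATGNAA, read as TTNCATCA on the other strand, stood in 3.62% of all 35116 windows and in windows of 6 of the 23 listed genes that have one, ASNS and SLC3A2 among the 5 that rose. In SLC3A2 it lay 37 bases after a start. A listed gene counted if any of its windows held the match, and some genes have several. Counts of genes and shares of windows are therefore unlike measures, here and for the other motifs. Such a match is a description of the letters, not a binding site.

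ASNS read 15.2, 21.2, 20.4, 14.2 and 14.8 FPKM in the 5 libraries at 1 mM, against a lowest value of 6.81, a median of 8.67 and a highest of 11.7 at the lower doses. All 5 values at 1 mM lay above all 10 at the lower doses (log2 fold change 0.89, SE 0.12, adjusted p = 0.00059). PSAT1 and PHGDH encode enzymes of the serine synthesis branch of glycolysis. PSAT1 read 29.9, 34.04, 31.4, 23.2 and 23.3 FPKM at 1 mM, against 15.7 to 20.5 (median 17.7) at the lower doses (log2 fold change 0.62, SE 0.09, adjusted p = 0.00162), again with no overlap. PHGDH ranged over 26.2 to 31.8 FPKM at 1 mM and 16.8 to 26.2 (median 21.7) at the lower doses (log2 fold change 0.40, adjusted p = 0.0241). Its highest library at the lower doses just exceeded the lowest at 1 mM. TRIB3, a pseudokinase that feeds back on ATF4, ranged over 12.6 to 19.2 FPKM at 1 mM and 9.49 to 12.97 (median 11.7) at the lower doses (log2 fold change 0.45, adjusted p = 0.018), with 1 library on each side overlapping. SLC3A2, the heavy chain shared by several amino acid transporters, averaged 62.0 ± 6.11 FPKM at 1 mM against 46.98 ± 5.63 at the lower doses (log2 fold change 0.40, adjusted p = 0.0323). Its groups overlapped. The call of PHGDH ended without 1 mM replicate 1, 2 or 4 (adjusted p up to 0.0924) and that of TRIB3 without 1 mM replicate 1 or 2 (up to 0.0686). SLC3A2 lost its call in 7 of the 15 fits that left out a library, those without replicate 1, 2, 4 or 5 at 1 mM, replicate 1 at 10 µM, or replicate 1 or 5 at 0.1 µM (adjusted p up to 0.1002).

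A glutamine importer, which is in none of the lists, and 1 tRNA synthetase rose too. SLC1A5, that importer, read 56.4, 50.98, 43.6, 42.2 and 40.1 FPKM at 1 mM, against a lowest value of 27.1, a median of 30.5 and a highest of 36.2 at the lower doses (log2 fold change 0.58, SE 0.08, adjusted p = 0.00136). Every library at 1 mM stood above every one at the lower doses. Of 12 cytosolic aminoacyl-tRNA synthetases, which charge tRNAs with amino acids, 1 rose and none fell (median log2 fold change 0.17). It was WARS, at 20.5 to 22.8 FPKM at 1 mM and 14.1 to 20.3 (median 16.3) at the lower doses (log2 fold change 0.37, adjusted p = 0.0204), with no overlap. Its call ended without 1 mM replicate 1, 2 or 4 (adjusted p up to 0.0679). The chaperones of the endoplasmic reticulum, which rise in the other arms of the unfolded protein response, gave no call among 18 tested (median log2 fold change -0.09), nor did 10 heat shock proteins (0.03) or 14 p53 targets (-0.01).

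Antioxidant genes gave 3 rises. Of 22 listed NRF2 targets 20 were tested, 3 rose and none fell, and their median log2 fold change was 0.19. SRXN1, sulfiredoxin, which repairs oxidised peroxiredoxins (chromosome 20, 646615 to 653370), read 105, 121, 109, 106 and 111 FPKM at 1 mM, against a lowest value of 50.4, a median of 70.7 and a highest of 80.1 at the lower doses (log2 fold change 0.70, SE 0.09, adjusted p = 0.00039). Its groups did not overlap. FTL, the ferritin light chain, was among the most abundant of these genes, with 10587, 10827, 10268, 10908 and 10388 FPKM at 1 mM, against 7312 to 9389 (median 8157) at the lower doses (log2 fold change 0.39, SE 0.06, adjusted p = 0.00239). Its 5 libraries at 1 mM lay within a narrow range, above the rest. SLC7A11, the cystine importer that feeds glutathione synthesis and is a target of both NRF2 and ATF4, read 8.005, 10.3, 9.65, 7.70 and 9.38 FPKM at 1 mM, against 3.63 to 6.75 (median 5.604) at the lower doses (log2 fold change 0.63, SE 0.11, adjusted p = 0.00699), also with no overlap. GCLC, the catalytic subunit of glutathione synthesis, averaged 51.5 ± 6.88 FPKM at 1 mM against 39.2 ± 4.30 at the lower doses and missed the threshold (adjusted p = 0.0515). The core of the antioxidant response element, TGACNNNGC (GCNNNGTCA on the other strand), stood in windows of 4 of the 16 listed genes that have one, in none of those of the 2 called genes that have one, and in 13.3% of all windows. HMOX1, haem oxygenase, stayed below the filter in named transcripts.

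AHR targets were represented by CYP1 genes. Of 8 listed targets 7 were tested, 1 rose and none fell (median log2 fold change 0.31). CYP1B1, which oxidises oestrogens and polycyclic hydrocarbons (chromosome 2, 38066973 to 38109902), read 14.49, 12.1, 11.2, 11.7 and 14.2 FPKM at 1 mM, against 8.54, 7.86, 6.89, 7.26 and 8.49 at 10 µM and 7.69, 7.47, 7.62, 7.48 and 7.54 at 0.1 µM. No library of the lower doses reached the lowest at 1 mM (log2 fold change 0.66, SE 0.07, adjusted p = 6.72e-05), and among the rises CYP1B1 had the lowest adjusted p of the named genes. CYP1A1 (chromosome 15, 74719542 to 74725610), the classic AHR target, read 3.24, 3.29, 1.84, 2.13 and 0.333 FPKM at 1 mM in named transcripts, against 0.927, 0.230, 0, 0 and 0.672 at 10 µM and 0.0906, 0, 0, 0.0261 and 0.0966 at 0.1 µM. Just 4 libraries reached 1 FPKM, so the filter kept CYP1A1 out of the test. The other members were not called: CYP1A2 averaged 2.25 ± 0.813 FPKM at 1 mM against 1.05 ± 0.461 at the lower doses (adjusted p = 0.0853). TIPARP, AHRR, ALDH3A1, NQO1 and UGT1A6 had adjusted p-values of 0.283 to 0.969.

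The filter and the naming of transcripts mattered for CYP1A1. The deposited assembly also holds transcripts without a gene name, and named ones held 63.4% of the FPKM at its locus. With all transcripts of the locus, CYP1A1 read 3.48, 3.29, 1.87, 2.14 and 4.09 FPKM at 1 mM, against 0.927, 0.948, 0.540, 0.166 and 0.703 at 10 µM and 0.638, 0.594, 0.624, 0.195 and 0.117 at 0.1 µM. The 5 libraries at 1 mM then stood clear of the other 10, and replicate 5, which was lowest at 1 mM in named transcripts, was the highest (log2 fold change 1.36, SE 0.17, adjusted p = 0.00018). Passing the filter only through the high group in itself favours a difference, so this value is a description. The 250 bases before the RefSeq start of CYP1A1 (GRCh38.p14, chr15:74725529-74725778, minus strand) are shown with the AHR core GCGTG in capitals:
CYP1A1: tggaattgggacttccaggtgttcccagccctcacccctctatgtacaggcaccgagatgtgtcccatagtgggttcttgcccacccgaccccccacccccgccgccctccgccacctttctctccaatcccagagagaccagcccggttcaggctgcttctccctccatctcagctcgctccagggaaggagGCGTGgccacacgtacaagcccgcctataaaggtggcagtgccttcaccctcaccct
The match began 57 bases before the start and overlapped no match of the other motifs; the enhancer for which the gene is known lies further out and is not shown. GCGTG, searched on both strands, stood in 36.5% of all windows and in windows of 5 of the 6 listed AHR targets that have one.

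**Figure D2:**
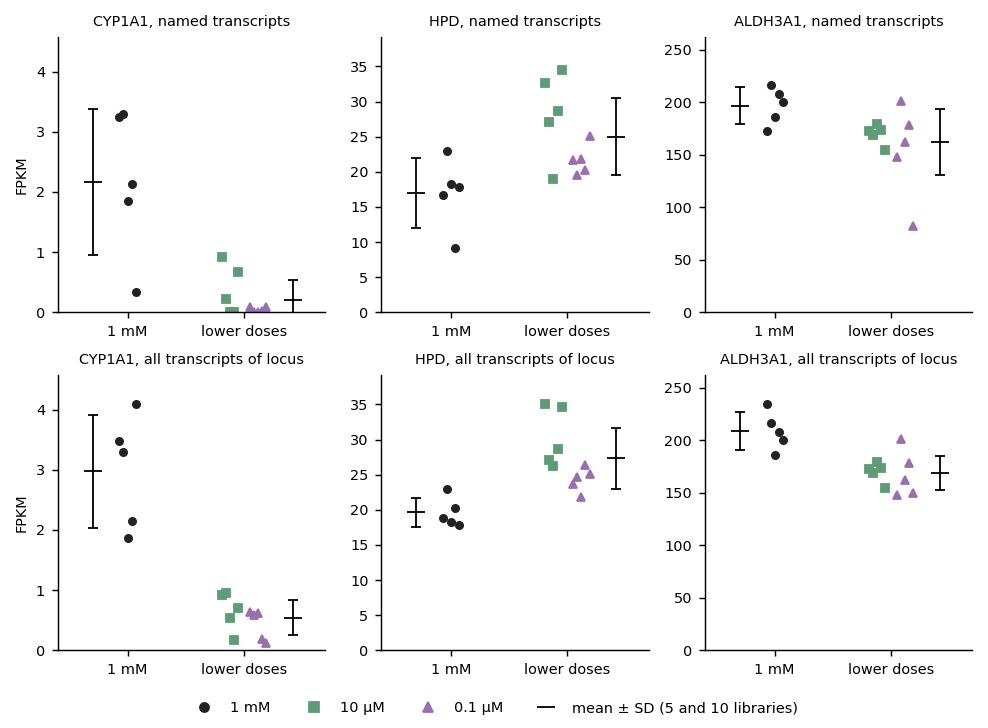
FPKM of every library for CYP1A1, HPD and ALDH3A1, from named transcripts alone (upper row) and from all transcripts of the locus (lower row); circles are 1 mM, squares 10 µM and triangles 0.1 µM, and bars give the mean ± SD of 5 and 10 libraries. In the lower row the 5 circles of CYP1A1 span 1.87 to 4.09 FPKM, above all 10 of the lower doses, and the low circle of HPD at 9.20 FPKM in the upper row joins the others at 20.3.

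Other rises fell outside these lists. BCYRN1, a small noncoding RNA first known from brain, read 10.9, 14.03, 18.1, 25.3 and 15.97 FPKM at 1 mM, against 4.67 to 9.64 (median 6.88) at the lower doses (log2 fold change 1.21, SE 0.18, adjusted p = 0.00162). Its groups did not overlap, but the control libraries spanned 3.76 to 28.1 FPKM, beyond both. DEPTOR, an inhibitor of mTOR, averaged 19.5 ± 2.22 FPKM at 1 mM against 13.2 ± 1.27 at the lower doses (log2 fold change 0.53, adjusted p = 0.00155). SLC16A1, the lactate transporter MCT1, averaged 14.8 ± 0.730 FPKM at 1 mM against 10.5 ± 1.78 at the lower doses (log2 fold change 0.47, adjusted p = 0.021). MSC, a basic helix-loop-helix repressor, averaged 31.04 ± 2.71 FPKM at 1 mM against 22.7 ± 2.58 at the lower doses (log2 fold change 0.44, adjusted p = 0.00859). SH3PXD2B, an adaptor of podosomes, averaged 6.69 ± 0.267 FPKM at 1 mM against 4.85 ± 0.347 at the lower doses (log2 fold change 0.40, adjusted p = 0.00231). Among 15 genes of glycolysis and hypoxia SLC2A1, the glucose transporter GLUT1, passed at 17.3 ± 3.36 FPKM at 1 mM against 11.7 ± 2.11 at the lower doses. Its groups overlapped. Its adjusted p was 0.0491 and exceeded 0.05 in 12 of the 15 fits that left out a library (up to 0.134). Its call held without replicate 5 at 1 mM or replicate 1 or 2 at 0.1 µM. The call of SLC16A1 ended without 1 mM replicate 2 or 5 (adjusted p up to 0.0691).

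**Figure D3:**
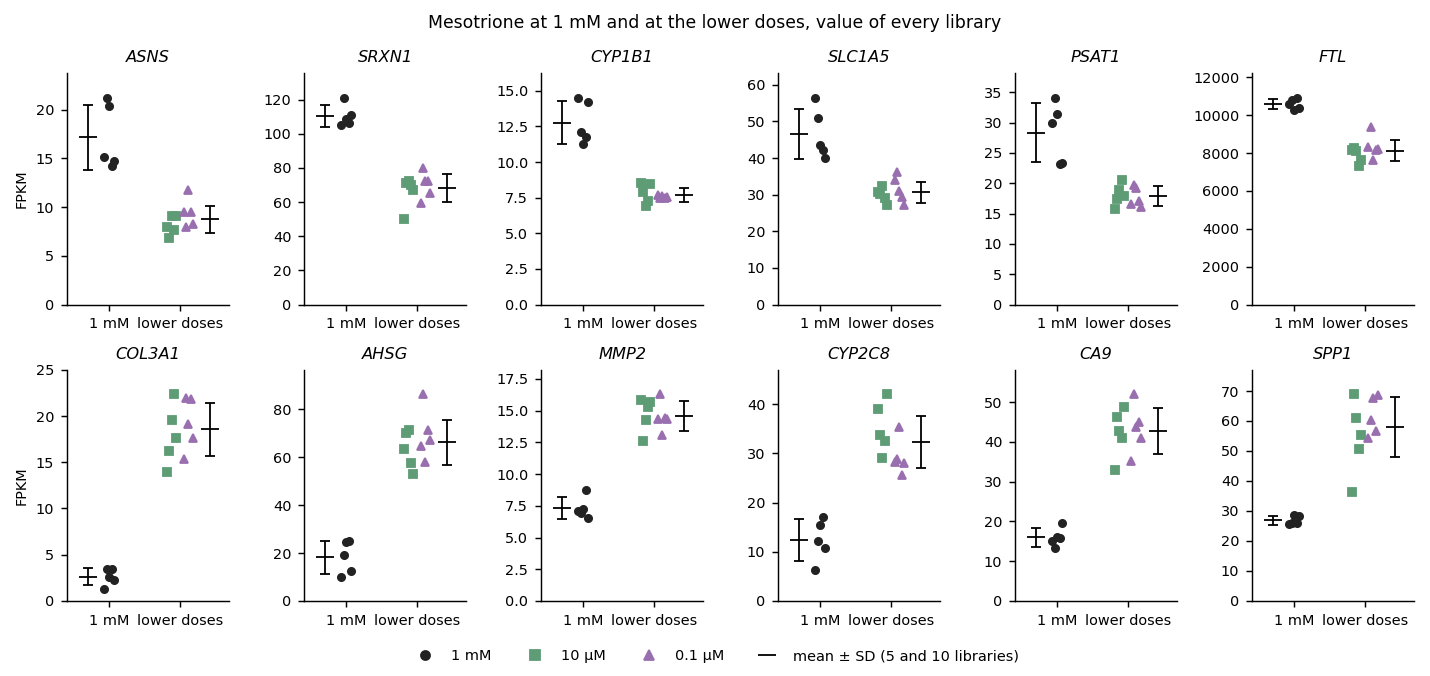
FPKM of every library for 6 genes that rose (upper row) and 6 that fell (lower row); circles are 1 mM, squares 10 µM and triangles 0.1 µM, and bars give the mean ± SD of 5 and 10 libraries. In each panel the 5 circles lie on 1 side of the 10 other points, which the choice of genes required except for FTL, MMP2 and SPP1, as for COL3A1 with 1.31 to 3.505 FPKM at 1 mM against 13.96 to 22.3 at the lower doses.

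Matrix genes were among those that fell. COL3A1, a chain of fibrillar collagen III (chromosome 2, 188974320 to 189012746), read 1.31, 3.43, 2.59, 3.505 and 2.28 FPKM at 1 mM, against 13.96, 16.2, 19.6, 22.3 and 17.6 at 10 µM and 15.4, 21.9, 19.1, 21.8 and 17.6 at 0.1 µM. Even the highest value at 1 mM lay far below the lowest at either lower dose (log2 fold change -2.46, SE 0.15, adjusted p = 4.82e-07). Of 13 stellate and mesenchymal markers 8 were tested; 4 fell, none rose, all 8 fold changes were negative, and their median was -0.64 on the log2 scale. POSTN, periostin, read 4.48, 6.72, 5.96, 6.21 and 5.89 FPKM at 1 mM, against 8.21 to 13.5 (median 11.7) at the lower doses (log2 fold change -0.86, SE 0.11, adjusted p = 0.00039). DCN and LUM encode the small proteoglycans decorin and lumican. DCN averaged 0.885 ± 0.587 FPKM at 1 mM against 4.09 ± 1.19 at the lower doses (log2 fold change -1.44, adjusted p = 0.00117), with 1 library on each side overlapping. LUM averaged 16.4 ± 2.07 FPKM at 1 mM against 28.2 ± 5.61 at the lower doses (log2 fold change -0.74, adjusted p = 0.00596), with none. DCN reached 1 FPKM in 1 library at 1 mM and in all 10 at the lower doses. It thus passed the filter through the lower doses, which in itself favours a difference, so its value is a description. Without DCN 3 of 7 fell. SPARC, COL1A1, PDGFRB and ACTA2 were not called, and COL1A2, TAGLN, VIM, BGN and THY1 lay below the filter. No marker was listed at 0 in all 15 libraries. The summed level of the 8 tested markers, DCN included, ran over 38.4 to 53.9 FPKM at 1 mM and 78.7 to 111 at the lower doses. This list and those of leukocytes and endothelium below are named for cells of whole liver. HepaRG is 1 tumour line, so their genes do not show that such cells were present. In RNA from whole cultures, fewer cells of a type and less RNA per cell cannot be told apart.

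Other matrix genes also fell, 4 of 13 tested of 18 listed, with none higher and a median of -0.17. The list was chosen with earlier results of these data known, and it holds SFRP2 and EPYC, which are among the largest falls. Its count therefore describes these members and is no test of matrix genes as a group. MMP2, a gelatinase, read 7.12, 6.92, 7.25, 8.76 and 6.51 FPKM at 1 mM, against a lowest value of 12.6, a median of 14.4 and a highest of 16.3 at the lower doses (log2 fold change -0.91, SE 0.07, adjusted p = 6.27e-06). Its groups did not overlap. SFRP2, a secreted Wnt modulator, averaged 4.43 ± 1.25 FPKM at 1 mM against 14.9 ± 2.52 at the lower doses (log2 fold change -1.56, adjusted p = 2.62e-05). EPYC, the proteoglycan epiphycan, averaged 1.64 ± 0.347 FPKM at 1 mM against 6.01 ± 1.27 at the lower doses (log2 fold change -1.40, adjusted p = 3.15e-05). TIMP1, an inhibitor of metalloproteinases, was abundant at 478 ± 35.2 FPKM at 1 mM against 654 ± 69.5 at the lower doses (log2 fold change -0.45, adjusted p = 0.00707), and its groups overlapped by 1 library. ECM1, extracellular matrix protein 1, read 4.99, 4.91, 5.72, 0 and 4.56 FPKM at 1 mM, against 8.04 to 11.3 (median 10.3) at the lower doses. It was listed at 0 in 1 mM replicate 4, where all transcripts of its locus gave 4.12 FPKM. Its call (log2 fold change -1.40, adjusted p = 0.0406) ended in 13 of the 15 fits that left out a library (adjusted p up to 0.0693), all but those without 1 mM replicate 3 or 4. From the whole locus it held (log2 fold change -0.95, SE 0.08, adjusted p = 2.17e-06).

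Secreted liver proteins fell in part. Of 25 plasma protein genes, all tested, 3 fell, none rose, and the median log2 fold change was -0.36; 20 of the 25 were negative. AHSG, which encodes fetuin-A (chromosome 3, 186612923 to 186621318), read 9.94, 19.1, 24.6, 25.1 and 12.6 FPKM at 1 mM, against 63.4, 70.4, 71.6, 57.6 and 52.8 at 10 µM and 64.6, 86.3, 58.2, 71.3 and 67.4 at 0.1 µM. The highest value at 1 mM lay below the lowest at the lower doses (log2 fold change -1.87, SE 0.18, adjusted p = 3.15e-05). APOA2, an apolipoprotein of HDL, read 16.1, 28.8, 45.9, 57.1 and 23.3 FPKM at 1 mM, against 51.7 to 137 (median 103) at the lower doses (log2 fold change -1.49, adjusted p = 0.0127); it varied within both groups, which overlapped. HPX, the haem carrier hemopexin, averaged 225 ± 16.1 FPKM at 1 mM against 328 ± 68.2 at the lower doses (log2 fold change -0.52, adjusted p = 0.0398), with no overlap. Its highest values at the lower doses, 457 and 443 FPKM, were both of replicate 1. Its call ended in 9 of the 15 fits that left out a library (adjusted p up to 0.106), all but those without replicate 1, 3 or 4 at 10 µM or replicate 1, 3 or 4 at 0.1 µM. ALB averaged 7469.7 ± 2041 FPKM at 1 mM against 9678 ± 1161 at the lower doses and was not called (adjusted p = 0.206). TTR, transthyretin, averaged 1039 ± 241 FPKM at 1 mM against 663 ± 129 at the lower doses (adjusted p = 0.0805). The summed level of the 25 genes ran over 17657 to 28275 FPKM at 1 mM and 27316 to 32338 at the lower doses, overlapping ranges.

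Acute phase proteins, which the liver makes in inflammation, gave 2 falls and no rise among 10 tested of 11 listed, and all 10 fold changes were negative (median -0.83). CRP, C-reactive protein, read 3.305, 2.02, 2.30, 2.92 and 1.92 FPKM at 1 mM, against 70.6, 13.01, 8.46, 12.3 and 5.90 at 10 µM and 71.5, 16.9, 11.7, 11.8 and 18.3 at 0.1 µM. Replicate 1 of both lower doses stood far above the other 8 libraries, and the lowest of the 10 still exceeded every value at 1 mM (log2 fold change -2.38, SE 0.48, adjusted p = 0.0162). The call of CRP ended without 1 mM replicate 2 (adjusted p = 0.0534). CP, the copper carrier ceruloplasmin, read 14.7, 13.1, 18.7, 20.3 and 21.1 FPKM at 1 mM, against 30.6 to 73.7 (median 46.5) at the lower doses (log2 fold change -1.38, SE 0.20, adjusted p = 0.00136), with no overlap.

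Complement genes, whose products opsonise and lyse microbes, fell in 5 of 15 tested of 18 listed, with none higher; all 15 fold changes were negative and their median was -0.68. C2, which joins the classical pathway's convertase, read 40.5, 39.4, 26.2, 49.4 and 38.8 FPKM at 1 mM, against 60.2 to 101 (median 64.3) at the lower doses (log2 fold change -0.87, SE 0.14, adjusted p = 0.00387). C6, part of the membrane attack complex, averaged 13.7 ± 3.48 FPKM at 1 mM against 29.2 ± 7.82 at the lower doses (log2 fold change -1.03, adjusted p = 0.00609). MASP1, a protease of the lectin pathway, averaged 8.18 ± 1.35 FPKM at 1 mM against 11.7 ± 1.08 at the lower doses (log2 fold change -0.48, adjusted p = 0.0106). C3, the central component, averaged 874 ± 99.7 FPKM at 1 mM against 1257 ± 232 at the lower doses (log2 fold change -0.51, adjusted p = 0.0332). Its call ended in 6 of the 15 fits that left out a library, those without replicate 2, 3, 4 or 5 at 1 mM or replicate 2 or 5 at 0.1 µM (adjusted p up to 0.109). In none of C2, C6, MASP1 and C3 did a library at 1 mM overlap the lower doses. The 15 tested genes summed to 1860.0 to 2285 FPKM at 1 mM and 2650.0 to 4508 at the lower doses, ranges that did not overlap.

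Of 13 tested hepatocyte transcription factors 3 fell and none rose (median -0.20). FOXA1, a pioneer factor of endoderm, averaged 7.95 ± 0.883 FPKM at 1 mM against 10.8 ± 0.839 at the lower doses (log2 fold change -0.40, adjusted p = 0.00699) with no overlap. NR1H4, the bile acid receptor FXR, averaged 4.12 ± 0.574 FPKM at 1 mM against 6.90 ± 1.53 at the lower doses (log2 fold change -0.61, adjusted p = 0.021), also with none. ONECUT1, or HNF6, averaged 16.7 ± 2.42 FPKM at 1 mM against 22.7 ± 2.53 at the lower doses (log2 fold change -0.42, adjusted p = 0.0265), with overlap. HNF4A, a master regulator of hepatocytes, averaged 25.8 ± 3.98 FPKM at 1 mM against 28.3 ± 2.75 at the lower doses and was not called (adjusted p = 0.597). The calls of NR1H4 (without 1 mM replicate 1 or 2, adjusted p up to 0.0777) and ONECUT1 (without 1 mM replicate 1, 2 or 3, up to 0.0885) did not hold in those fits, and that of NR1H4 ended with all transcripts of its locus (adjusted p = 0.0628).

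Of 7 tested biliary and progenitor markers 2 fell and none rose (median -0.36). SPP1, osteopontin, read 25.5, 26.0, 28.8, 25.9 and 28.3 FPKM at 1 mM, against a lowest value of 36.2, a median of 58.5 and a highest of 68.9 at the lower doses (log2 fold change -1.06, SE 0.12, adjusted p = 0.000149). KRT19, a keratin of bile duct cells, read 473, 394, 364, 355 and 319 FPKM at 1 mM, against 479 to 638 (median 540.5) at the lower doses (log2 fold change -0.52, SE 0.09, adjusted p = 0.00489). Neither overlapped. SOX9, a duct and progenitor factor, averaged 13.3 ± 1.37 FPKM at 1 mM against 11.6 ± 1.32 at the lower doses (adjusted p = 0.392). EPCAM and CFTR lay below the filter. The 7 tested markers summed to 425 to 565 FPKM at 1 mM and 610.2 to 777 at the lower doses, ranges that did not overlap. Of 5 tested leukocyte and Kupffer cell markers LYZ, lysozyme, fell at 0.940 ± 0.373 FPKM at 1 mM against 2.86 ± 1.22 at the lower doses (log2 fold change -0.96, adjusted p = 0.0184). LYZ reached 1 FPKM in 3 libraries at 1 mM and in all 10 at the lower doses, so it too passed the filter through the lower doses. PTPRC, CD163 and CSF1R lay below the filter, and the 5 tested markers summed to 10.97 to 23.1 FPKM at 1 mM and 11.1 to 41.7 at the lower doses. The call of LYZ ended without 1 mM replicate 2 or 4 (adjusted p up to 0.0624). KDR, the 1 endothelial marker tested of 7, averaged 1.20 ± 0.261 FPKM at 1 mM against 2.37 ± 0.867 at the lower doses (adjusted p = 0.0674). The part of cell types in the other results was not tested.

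Binding proteins of insulin-like growth factors, which hold the hormones in the extracellular space, fell as well. Of 8 tested genes of that system 5 fell and none rose, all 8 fold changes were negative, and the median was -0.52. IGFBP5 read 4.80, 5.46, 5.04, 4.83 and 3.81 FPKM at 1 mM, against 7.12 to 13.1 (median 10.8) at the lower doses (log2 fold change -0.94, SE 0.13, adjusted p = 0.00126). IGFBP4 averaged 125 ± 15.5 FPKM at 1 mM against 188 ± 18.8 at the lower doses (log2 fold change -0.59, adjusted p = 0.00141). IGFBP6 averaged 6.12 ± 1.07 FPKM at 1 mM against 10.9 ± 1.72 at the lower doses (log2 fold change -0.74, adjusted p = 0.00231). No library at 1 mM overlapped the lower doses in IGFBP5, IGFBP4 or IGFBP6. IGFBP2, at 152 ± 13.3 FPKM at 1 mM against 193 ± 19.99 at the lower doses, and IGFBP7, at 48.2 ± 4.44 FPKM at 1 mM against 67.4 ± 10.9 at the lower doses, passed narrowly and overlapped (adjusted p = 0.0385 and 0.0458). Their calls ended in 11 and 12 of the 15 fits that left out a library (adjusted p up to 0.124 and 0.127). That of IGFBP2 held without replicate 4 at 1 mM, 5 at 10 µM or 1 or 3 at 0.1 µM, and that of IGFBP7 without replicate 1 at 1 mM or 4 or 5 at 10 µM. Among epithelial genes, KRT14, a basal keratin, averaged 1.701 ± 0.649 FPKM at 1 mM against 5.92 ± 1.52 at the lower doses (log2 fold change -1.36, adjusted p = 0.000567), 1 call among 5 keratins tested. VSIG1, an adhesion molecule of epithelia, averaged 2.79 ± 0.531 FPKM at 1 mM against 9.77 ± 1.66 at the lower doses (log2 fold change -1.50, adjusted p = 6.27e-06); both showed no overlap.

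Enzymes of drug and fatty acid metabolism fell in a few members. CYP2C8, which oxidises drugs and arachidonic acid (chromosome 10, 95036772 to 95069497), read 6.19, 12.2, 15.3, 17.1 and 10.8 FPKM at 1 mM, against 39.1, 33.8, 29.1, 32.6 and 41.96 at 10 µM and 28.3, 28.9, 35.3, 25.6 and 28.1 at 0.1 µM. All 5 values lay below all 10 (log2 fold change -1.37, SE 0.18, adjusted p = 0.00051), 1 fall and no rise among 18 CAR and PXR targets (median 0.10). CYP3A4, the main drug oxidase of the liver, read 6.24, 18.6, 9.53, 12.9 and 6.87 FPKM at 1 mM, against 6.30, 5.85, 2.91, 2.71 and 11.2 at 10 µM and 1.38, 3.32, 3.95, 3.40 and 3.02 at 0.1 µM. Its values at 10 µM reached into those at 1 mM, and it was not called (log2 fold change 1.17, SE 0.32, adjusted p = 0.0821). It passed without replicate 5 at 10 µM (adjusted p = 0.0213) and in the fit that left out the series' library rich in ribosomal RNA. In no other setting did it pass (adjusted p up to 0.242).

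Of 7 tested CYP4 fatty acid hydroxylases 2 fell and none rose (median -0.23). CYP4F22, which acts on very long fatty acids of the skin barrier, read 0.940, 2.35, 2.44, 4.38 and 3.80 FPKM at 1 mM, against 6.90 to 13.8 (median 10.3) at the lower doses (log2 fold change -1.62, SE 0.20, adjusted p = 0.000446). CYP4A11, a PPARalpha target that hydroxylates medium and long fatty acids, averaged 1.72 ± 1.24 FPKM at 1 mM against 6.38 ± 2.47 at the lower doses (log2 fold change -1.49, adjusted p = 0.00746). Only its highest library at 1 mM, 3.70 FPKM, exceeded the lowest at the lower doses. Of 24 genes in the PPARalpha and fatty acid oxidation list, CYP4A11 and PLIN2, a coat protein of lipid droplets, fell and none rose (median -0.12). PLIN2 averaged 26.9 ± 3.55 FPKM at 1 mM against 34.3 ± 3.31 at the lower doses (log2 fold change -0.34, adjusted p = 0.0445), overlapped, and lost its call in 12 of the 15 fits that left out a library (adjusted p up to 0.149), all but those without replicate 3 at 1 mM or 1 or 4 at 0.1 µM.

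Alcohol and aldehyde dehydrogenases fell in 4 of 12 cases with none higher (median -0.35). ADH1C, a class I alcohol dehydrogenase, read 12.5, 11.8, 14.3, 20.8 and 24.6 FPKM at 1 mM, against 23.1 to 59.8 (median 37.6) at the lower doses (log2 fold change -1.19, SE 0.20, adjusted p = 0.00391), with 1 library on each side overlapping. ADH4, a class II enzyme, averaged 3.22 ± 1.704 FPKM at 1 mM against 8.64 ± 3.25 at the lower doses (log2 fold change -1.21, adjusted p = 0.0157). Its groups overlapped. ALDH8A1 of the kynurenine pathway averaged 0.818 ± 0.396 FPKM at 1 mM against 1.96 ± 0.348 at the lower doses (log2 fold change -0.72, adjusted p = 0.00409). ALDH4A1 of proline breakdown averaged 26.7 ± 2.23 FPKM at 1 mM against 35.7 ± 4.59 at the lower doses (log2 fold change -0.40, adjusted p = 0.0206). ALDH8A1 reached 1 FPKM in 2 libraries at 1 mM and in all 10 at the lower doses, so it too passed the filter through the lower doses; without it 3 of 11 fell. The call of ADH4 ended without 1 mM replicate 2 (adjusted p = 0.0539), and that of ALDH4A1 without 1 mM replicate 3 or 5 (up to 0.0728). Among 9 tested genes of the urea cycle and amino acid breakdown ARG1, arginase, gave the 1 call, at 1.09 ± 0.361 FPKM at 1 mM against 2.78 ± 0.394 at the lower doses (log2 fold change -0.87, adjusted p = 0.000586). CA9, a carbonic anhydrase that marks hypoxia in many tissues (chromosome 9, 35673856 to 35681159), read 15.001, 13.3, 16.2, 15.8 and 19.7 FPKM at 1 mM, against a lowest value of 32.9, a median of 43.2 and a highest of 51.96 at the lower doses (log2 fold change -1.36, SE 0.10, adjusted p = 6.27e-06). Its groups did not overlap, while LDHA, ENO1 and VEGFA, which hypoxia also induces, were not called (adjusted p = 0.364, 0.286 and 0.74).

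The pathway of mesotrione's known target gave no call in named transcripts. HPD (chromosome 12, 121839527 to 121863596), the gene of the inhibited enzyme, read 16.7, 22.9, 18.2, 9.20 and 17.8 FPKM at 1 mM, against 32.6, 27.1, 18.997, 28.7 and 34.5 at 10 µM and 21.7, 19.6, 21.8, 20.3 and 25.04 at 0.1 µM. The groups overlapped, and the difference missed the threshold (log2 fold change -0.56, SE 0.18, adjusted p = 0.162). The later enzymes HGD, GSTZ1 and FAH averaged 19.4 ± 4.82, 18.02 ± 1.701 and 43.2 ± 6.90 FPKM at 1 mM, against 22.3 ± 6.81, 16.5 ± 1.96 and 47.96 ± 5.92 at the lower doses (adjusted p = 0.848, 0.644 and 0.613). TAT, which starts the pathway, lay below the filter at 0.203, 0.291, 0.423, 0.614 and 0.412 FPKM at 1 mM, and no library of the lower doses passed 1 FPKM either. With all transcripts of the locus HPD read 18.8, 22.96, 18.2, 20.3 and 17.8 FPKM at 1 mM, against 35.02, 27.1, 26.3, 28.7 and 34.6 at 10 µM and 23.7, 24.6, 21.8, 26.4 and 25.1 at 0.1 µM, and was then called lower (log2 fold change -0.45, SE 0.10, adjusted p = 0.0198). In that count the 5 libraries at 1 mM still overlapped the lower doses by 1 library.

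Across all lists, 20 of 34 held at least 1 call, where 2.1% of all genes tested were called. With so low a share, a short list without a call or a single call in a long list is no result about that list. The 14 without one covered, beside those named above, cholesterol synthesis and uptake (18 genes tested, median -0.16), fatty acid synthesis (10, median -0.24), bile acids (7, -0.07), gluconeogenesis (3, -0.31), metallothioneins (6, 0.14), the cell cycle (20, 0.08), interferon-stimulated genes (10, -0.0041), immediate early genes (8, 0.05) and mitochondrially encoded subunits (5, -0.73). SREBF1 and SCD, which drive and carry out fatty acid synthesis, came nearest to the threshold in those lists, with adjusted p = 0.0591 and 0.0643. Of 13 listed mitochondrial genes 5 were tested, with log2 fold changes from -3.53 to 1.24. The rest, MT-CO1 among them, lay below the filter, and mitochondrial genes held just 0.058% to 0.43% of summed FPKM at 1 mM. Their median and their share as a library measure are limited by this. All medians stand beside 0.01 for all genes tested. Every list was chosen with earlier results of these data known, so the list counts are descriptions.

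**Figure D4:**
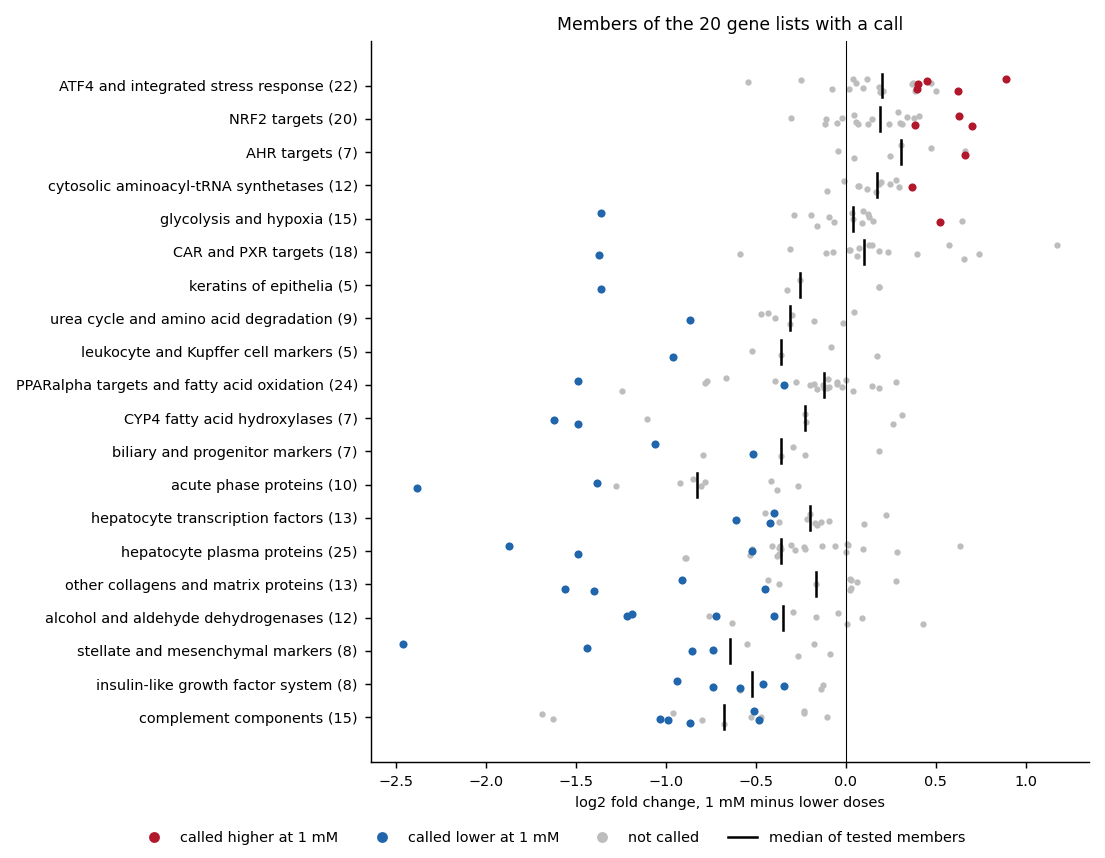
Log2 fold change, 1 mM minus lower doses, of each tested member of the 20 gene lists with a call (number tested in brackets); red and blue points are members called higher and lower at 1 mM, grey points were not called, and black bars are list medians. The ATF4, NRF2, AHR and tRNA synthetase lists hold red calls alone, the complement, insulin-like growth factor and stellate lists blue calls alone, with list medians of -0.68, -0.52 and -0.64 in the last 3.

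Taken singly, each lower dose gave fewer calls than the pool. Against 10 µM, 124 genes differed at 1 mM (0.913%), 23 higher (0.169%) and 101 lower (0.744%). Against 0.1 µM, 141 differed (1.04%), 14 higher (0.103%) and 127 lower (0.935%). These comparisons share the 5 libraries at 1 mM, so they are given side by side only. ASNS had log2 fold changes of 0.98 against 10 µM and 0.80 against 0.1 µM (adjusted p = 0.00167 and 0.00741). COL3A1 had -2.41 and -2.51 (adjusted p = 1.67e-05 and 9.92e-06). For SLC7A11 the call held against 10 µM (adjusted p = 0.0268) and missed against 0.1 µM (0.0543). For CRP it missed against 10 µM (0.106) and held against 0.1 µM (0.0418). Without 1 mM replicate 2 the count against 0.1 µM was 78, and without 0.1 µM replicate 5 it was 86.

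The lower doses differed from each other in 1 gene out of 13581 (0.00736%), while 504 had an unadjusted p under 0.05. It was AC016596.1, a clone-named gene with no symbol (chromosome 5, 55944656 to 55944733), which averaged 154 FPKM at 10 µM against 284 at 0.1 µM (log2 fold change -0.87, adjusted p = 0.0105). The count was 0 without replicate 2 or 3 at 10 µM or replicate 1, 2 or 4 at 0.1 µM, and 2 without replicate 1 at 10 µM. Along the series, CYP1B1 averaged 7.56 ± 0.0946 FPKM at 0.1 µM, 7.81 ± 0.734 at 10 µM and 12.8 ± 1.495 at 1 mM. MMP2 averaged 14.49 ± 1.15 FPKM at 0.1 µM, 14.7 ± 1.33 at 10 µM and 7.31 ± 0.856 at 1 mM, and CYP3A4 averaged 3.02 ± 0.974 FPKM at 0.1 µM, 5.79 ± 3.43 at 10 µM and 10.8 ± 5.08 at 1 mM. Control libraries averaged 7.86 ± 0.820 FPKM for CYP1B1, 14.3 ± 1.16 for MMP2 and 2.76 ± 0.216 for CYP3A4.

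**Figure D5:**
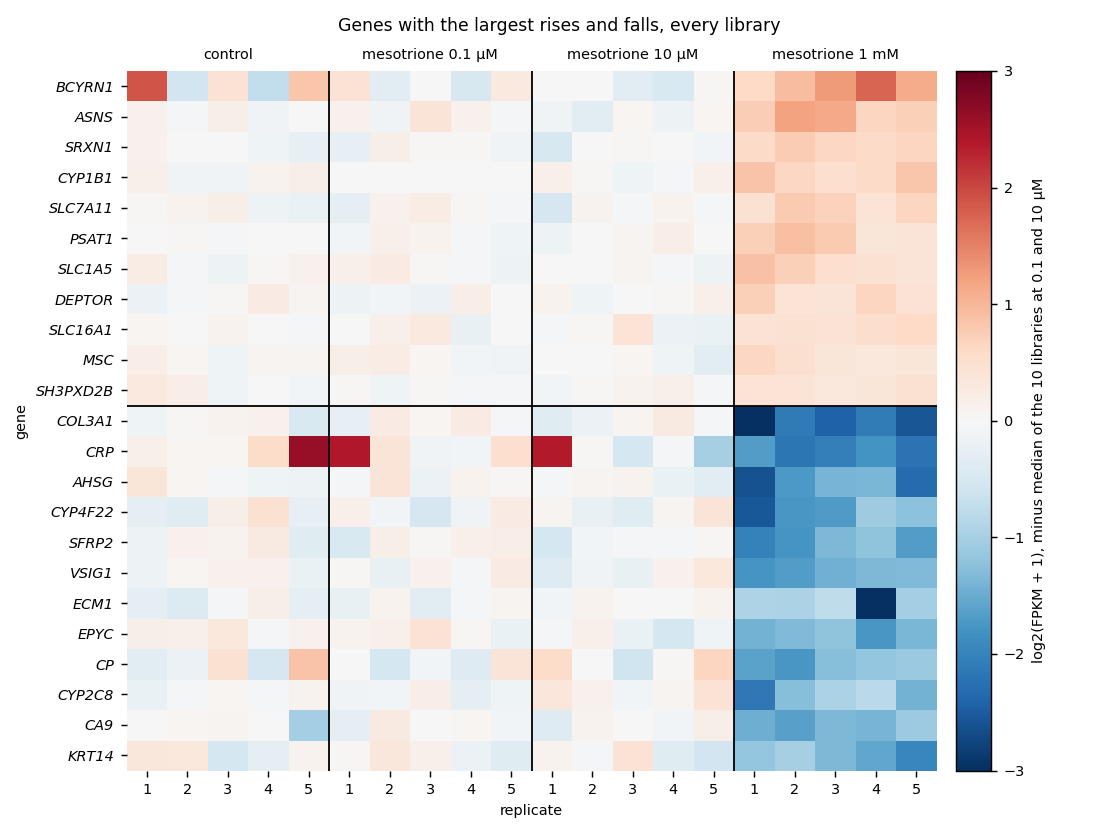
Log2(FPKM + 1) of genes with the largest rises (upper block) and the largest falls (lower block), minus the median of the 10 libraries at 0.1 and 10 µM, in every library (columns: control, then mesotrione at 0.1 µM, 10 µM and 1 mM, replicates 1 to 5 each). The colour departs from that median in the 5 columns of 1 mM. CRP is high in replicate 1 of both lower doses and in control replicate 5, and BCYRN1 varies among controls. By the sample numbers in the titles, control replicate 5 comes directly before mesotrione replicate 1.

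Adding unnamed transcripts to the gene of their locus raised the number of calls. By locus, 484 of 14116 genes were called (3.43%), 110 higher (0.779%) and 374 lower (2.65%), and 270 of the 285 genes called by name were among them. The NRF2 list then held 6 rises, with TXNRD1, GCLC and PGD beside SRXN1, SLC7A11 and FTL, and the ATF4 list 7, with ATF3 and SESN2 added. The AHR list held CYP1B1 and ALDH3A1, beside CYP1A1, which the filter let in through the 1 mM group alone. ALDH3A1, an aldehyde dehydrogenase induced by AHR ligands, averaged 209 ± 18.03 FPKM at 1 mM against 169 ± 16.02 at the lower doses (log2 fold change 0.31, SE 0.07, adjusted p = 0.0307). Falls by locus numbered 7 of 25 plasma proteins, 8 of 15 complement genes and 5 of 8 stellate markers. Of the 14 lists without a call by name, 6 held 1 or more by locus: HPD, KDR, PDIA4, FDPS, SREBF1 and SCD were called lower and RRM2 higher. HMOX1 by locus was not called. Loci with several named genes could not be assigned and were left as named.

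Some levels are less certain than their spread shows. CYP1B1, SLC7A11, SLC1A5, SLC16A1, MSC, WARS, CP, CA9, FOXA1, ARG1 and ADH4 overlap a gene on the opposite strand, and C2 and ADH1C one on the same strand; the kit was stranded, but the labels leave out how strand was used in counting. FTL, CYP2C8, CYP3A4, ADH1C, KRT14 and BCYRN1 have close copies elsewhere in the genome that can share reads. Sequencing ran in 3 pools, but the labels do not assign libraries to pools, so no value within a pool could be had.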

How the data were processed

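RNA was taken from HepaRG cultures of all groups, and libraries were made with a stranded kit and sequenced as paired 75-base reads in 3 pools, per the labels' protocols. HISAT, HISAT2, StringTie and GRCh38 are named per the submitters' processing notes, without roles or versions. The authors deposited 1 table of FPKM values, 1 row per transcript (239290 rows, 40117 without a gene name). Columns with values slightly below 0, 24 in all and set to 0 here, are recorded as a score, although per the file headers the authors deposited them as FPKM. Library totals were not given, so depth was estimated from 11640 short transcripts of 300 to 1500 bases. That estimate limits the precision of low genes, covers counting error only, and gives no counts; no count test was run.

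Transcript FPKM were summed by gene name. Date-like names (25, spread over 335 transcripts) were restored to symbols except for 2 transcripts. Genes at 1 FPKM or more in at least 5 of 15 libraries were tested on log2(FPKM + 1), pseudocount 1, with limma 3.58.1 (R 4.3.3; empirical Bayes with trend, robust), Benjamini-Hochberg adjusted over all genes tested, threshold 0.05. The pooled comparison had 2 means and the single doses 3. The code was tested on simulated data. Tables and figures used Python 3.11.15, pandas 2.3.3, numpy 2.4.6 and matplotlib 3.10.9. The libraries, members and gene lists were chosen with earlier results of these data known.

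Genes named in the text are the 12 largest rises and 12 largest falls among called genes with a symbol, with 5 FPKM or more on average where higher, and with groups that do not overlap; up to 4 called members per list by adjusted p; all members of the tyrosine and AHR lists; and CYP3A4, HMOX1, ALB and CRP. In 10 µM against 0.1 µM the called gene is named. Genes given with a call or an adjusted p but outside this rule (SLC3A2, C3, IGFBP7, GCLC, TTR, HNF4A, SOX9, KDR, LDHA, ENO1, VEGFA, SREBF1, SCD, genes added by locus, and those under other observations) were chosen after their values were seen. Some genes the rule names are not reported here. Promoters are from RefSeq GRCh38.p14. Alternatives were another pseudocount, another filter or none, median-ratio scaling, plain empirical Bayes, unnamed transcripts added to the 1 named gene at their locus (18349 transcripts), a replicate block, fits over 50 or 49 libraries, and each library left out in turn. The fit over 49 libraries was added after the data were seen. Replicate numbers of the mesotrione libraries follow the order of the sample numbers in the titles, and the labels do not say what these mark. Those of the control libraries do not follow it, as control replicate 5 has the lowest sample number.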

Additional observations from a re-analysis of the deposited data

Results flagged for a closer look

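Single libraries stood apart from the rest of their group in 7 of 138 gene and group pairs examined with Dixon's test, and chance gives about 1 in 20. ECM1 was listed at 0 FPKM in replicate 4 at 1 mM, against 4.56 to 5.72 in the other 4 libraries at 1 mM. IGFBP6 read 4.29 FPKM in replicate 3 at 1 mM, against 6.24 to 7.01 in the others.

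At the lower doses, FTL reached 9389 FPKM in replicate 2 at 0.1 µM, against 7312 to 8336 in the other 9. SPP1 was low at 36.2 FPKM in replicate 1 at 10 µM, against 50.7 to 68.9. ALDH8A1 was high at 2.77 FPKM in replicate 2 at 10 µM, against 1.52 to 2.08. ALDH3A1 was low at 81.9 FPKM in replicate 5 at 0.1 µM, against 148 to 201; with all transcripts of its locus that library gave 149.8 FPKM. UGT1A6 was low at 59.4 FPKM in replicate 1 at 0.1 µM, against 105 to 179.5. Each of FTL, SPP1, ALDH8A1 and IGFBP6 kept its call in every fit that left out a library.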

How the results depend on the processing

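Signs were compared for the 69 genes named by the rule and tested. Among these, no called gene changed direction under any alternative. Of those not called, HGD changed sign by locus (log2 fold change 0.14), and NQO1 and UGT1A6 did so in fits that left out a library (to -0.02 and 0.10). Of 57 called genes among the 69 named and tested, 42 kept their call in every fit that left out a library, 40 in every setting except the fit over all 50 libraries, and 18 in every setting. The 285 calls of 1 mM against the pooled lower doses became 151 with no filter on low values (41429 genes tested), 484 with unnamed transcripts added to their locus, 44 over all 50 libraries and 162 to 290 without 1 library, lowest without replicate 2 at 1 mM; the fit over 49 libraries gave 389. The 124 calls against 10 µM became 67 with no filter and 257 by locus, with 84 to 124 without 1 library. The 141 against 0.1 µM became 75 and 285, with 78 to 157 without 1 library. The 1 call of 10 µM against 0.1 µM became 0 with median-ratio scaling, and 0 to 2 without 1 library. The cause was not tested, beyond more genes being tested without the filter. HPX, IGFBP2 and ALDH4A1 lost their calls with median-ratio scaling.

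With replicate number as a block the calls were 386 (89 higher, 297 lower), 163 against 10 µM, 177 against 0.1 µM and 1 between the lower doses. The deviations of same-numbered libraries correlated at -0.072 to 0.153 (median 0.075), others at -0.155 to 0.125 (median -0.013). Not every same-numbered pair exceeded 0.1, and the labels do not say what the numbers mark, so the main fit left them out. However, 10 of 15 libraries correlated best with one of their own number, a hint of pairing from the data, not the design. The main fit ignores any effect that same-numbered libraries share, and what such an effect might be was not tested. The block added 1 call among the named genes, CYP1A2 (adjusted p = 0.00694). The median log2 fold change of all genes ran from -0.0062 to 0.0204 over the settings. The estimated depth and the log2(FPKM + 1) scale limit what can be seen in genes near 1 FPKM.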

Other observations

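The genes below were called in the same comparison and chosen after their values were seen. Among falls, PCOLCE, which enhances procollagen processing, averaged 14.4 ± 3.37 FPKM at 1 mM against 35.5 ± 3.21 at the lower doses (log2 fold change -1.26, adjusted p = 7e-06), and MMP7, matrilysin of duct epithelium, 17.2 ± 2.37 FPKM at 1 mM against 35.8 ± 9.26 at the lower doses (log2 fold change -0.99, adjusted p = 0.00249); neither overlapped. MGP, matrix Gla protein, averaged 10.9 ± 3.08 FPKM at 1 mM against 24.9 ± 5.85 at the lower doses (log2 fold change -1.12, adjusted p = 0.00556), and TNC, tenascin C, 0.475 ± 0.560 FPKM at 1 mM against 4.84 ± 3.55 at the lower doses (log2 fold change -1.86, adjusted p = 0.0116). HSD17B2, which inactivates oestradiol, averaged 4.97 ± 1.21 FPKM at 1 mM against 13.9 ± 3.82 at the lower doses (log2 fold change -1.29, adjusted p = 0.00263). HRG, histidine-rich glycoprotein of plasma, averaged 86.4 ± 34.5 FPKM at 1 mM against 162.6 ± 23.02 at the lower doses (log2 fold change -1.01, adjusted p = 0.0216), lost without replicate 5 at 1 mM (adjusted p = 0.0682). CYP2E1, which oxidises ethanol, averaged 13.7 ± 4.62 FPKM at 1 mM against 28.95 ± 11.6 at the lower doses (log2 fold change -0.9997, adjusted p = 0.0299), lost without replicate 1, 2, 3 or 5 at 1 mM or 5 at 0.1 µM (adjusted p up to 0.0953). The fatty acid carrier CD36 averaged 0.966 ± 1.04 FPKM at 1 mM against 4.39 ± 1.97 at the lower doses (log2 fold change -1.52, adjusted p = 0.02), lost without replicate 1, 2 or 4 at 1 mM (up to 0.0687). TNC and CD36 averaged under 1 FPKM at 1 mM, while their lowest values at the lower doses were 1.02 and 1.56 FPKM. Both therefore passed the filter through the lower doses, which in itself favours a difference, so their values are descriptions. The groups of MGP, TNC, HSD17B2, CYP2E1 and CD36 overlapped.

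Among rises, DHRS2, a short-chain dehydrogenase, averaged 3.46 ± 0.702 FPKM at 1 mM against 1.16 ± 0.365 at the lower doses (log2 fold change 1.05, adjusted p = 0.000485), with no overlap and with its call kept in all 15 fits that left out a library. ODC1, which starts polyamine synthesis, averaged 52.8 ± 3.72 FPKM at 1 mM against 40.6 ± 4.10 at the lower doses (log2 fold change 0.38, adjusted p = 0.017), and GAPDH of glycolysis 554 ± 28.5 FPKM at 1 mM against 437 ± 43.9 at the lower doses (log2 fold change 0.35, adjusted p = 0.0212). Their calls ended without replicate 2 or 3 at 1 mM for ODC1 (adjusted p up to 0.0643) and without replicate 2, 4 or 5 for GAPDH (up to 0.083). PRDX1, a peroxiredoxin that SRXN1 repairs, averaged 355 ± 21.1 FPKM at 1 mM against 294 ± 20.4 at the lower doses (log2 fold change 0.27, adjusted p = 0.0303), lost without replicate 1, 2, 3 or 5 at 1 mM, 3 at 10 µM or 4 at 0.1 µM (adjusted p up to 0.113). ANKRD1, a target of YAP, averaged 42.9 ± 11.1 FPKM at 1 mM against 25.7 ± 4.70 at the lower doses (log2 fold change 0.70, adjusted p = 0.0283), lost without replicate 1, 2 or 3 at 1 mM or 4 or 5 at 0.1 µM (up to 0.0972). Its groups overlapped. Of 11 tested ferritin heavy chain pseudogenes, which can share reads with each other and with FTH1, FTH1P2, FTH1P7 and FTH1P20 were called higher (adjusted p = 0.02, 0.0269 and 0.0277). The groups of FTH1P7 and FTH1P20 overlapped. FTH1P2 lost its call without replicate 1 or 5 at 1 mM, FTH1P7 without 1, 3 or 4 at 1 mM, and FTH1P20 without 1, 3, 4 or 5 at 1 mM, 2 at 10 µM or 4 at 0.1 µM (adjusted p up to 0.062, 0.0851 and 0.0912).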
